A study of Mus musculus with 6 samples.

Results

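Ly49-positive CD8 T cells are described here among T cells sorted from intracranial CT2A tumors. CT2A is a mouse glioma line. The tumors grew in WT C57BL/6J mice aged 6 to 8 weeks, which carried no other label of genotype or treatment. T cells bearing CD3 with either CD4 or CD8 were sorted at day 13 from 16 mice, in pools of 4, and at day 19 from 4 mice. Each day was 1 capture with gene expression, 138 antibody tags and T cell receptor (TCR) sequences from the same droplets, aimed at 10000 cells. The study is about how antigen presentation by macrophages relates to the passage of T cells from progenitor to terminal exhaustion, and the cells described here are one class among the T cells it profiled.

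A cell was a barcode with at least 5000 gene UMIs, at most 10% mitochondrial UMIs and a productive TCR contig. A UMI is a tag on 1 captured molecule. Ly49-positive cells were chosen by 3 measured limits: a UMI of a CD8 chain (Cd8a, Cd8b1) was present, Cd4 and Mki67 were at 0, and Klra1, Klra6 and Klra7 together gave at least 2 UMIs. The rule took 399 cells at day 13 and 221 at day 19, 620 of 7847 cells in all. They were compared with 1982 and 1109 CD8 cells that met the same limits and had none of these receptor UMIs, called Ly49-negative here. Another 138 and 39 CD8 cells had exactly 1 receptor UMI and entered neither class. The cells were selected on the receptor and CD8 counts, so the values of those genes describe the choice, and other genes from the same libraries are described without a test.

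Ly49 receptors are lectin-like proteins encoded by the Klra genes. They are best known from natural killer (NK) cells, where most members bind MHC class I and inhibit the cell through motifs in their tails, and a few activate it. A minority of mouse CD8 T cells also carries inhibitory Ly49 receptors, often together with the transcription factor Helios (Ikzf2), memory markers and high CD122. Such cells have been described as regulatory or virtual memory CD8 T cells. Most CD8 T cells carry a CD8 made of an alpha and a beta chain, encoded by Cd8a and Cd8b1, and some innate-like T cells carry alpha chains only.

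There was 1 capture per day, so no test between groups was made and no p-value is given. Levels are counts in 1000000 gene UMIs (CPM), summed over the cells of a class, and intervals are exact 95% intervals that cover counting error only. The 4 TCR contig tables of a day, called contig sets, show the spread within a capture. The labels do not say that they are separate animals. The 399 and 221 cells held 3333380 and 2330637 gene UMIs, with medians of 7174 and 9338 per cell. Ly49-negative cells had medians of 7079 and 8437. No barcode of a Ly49-positive cell occurred on both days, against 28 barcodes among all cells.

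Ly49-positive cells made up 15.8% of the CD8 T cells without Mki67 at day 13, with an interval of 14.4 to 17.3, and 16.1% at day 19, with one of 14.2 to 18.2. Contig sets 1 to 4 gave 17.3%, 11.6%, 19.0% and 17.6% at day 13, and 17.2%, 15.04%, 19.4% and 15.07% at day 19. The ranges overlapped and the share was alike on both days.

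Among the receptors, Klra7, which encodes Ly49G, was the most widely detected. A Klra7 UMI was found in 82.7% of the Ly49-positive cells at day 13 and 80.5% at day 19. Klra6, which encodes Ly49F, was found in 60.9% and 72.4%, and Klra1, which encodes Ly49A, in 35.8% and 35.7%. Cells with 2 of the 3 genes were the most frequent kind, at 48.9% and 51.6%. Cells with 1 gene made up 35.8% and 29.9%, and cells with all 3 genes 15.3% and 18.6%. The most frequent combination was Klra6 with Klra7 and no Klra1, in 31.3% and 38.5% of the cells. The median cell had 4 receptor UMIs at day 13 and 6 at day 19, and the highest had 31 and 35. The genes lie close together on chromosome 6 in GRCm38, at chr6:130013033-130026960 for Klra6, chr6:130218605-130233322 for Klra7 and chr6:130363918-130386874 for Klra1. Reads common to near-identical Klra genes may have been split or dropped in counting, so the order of the 3 genes is uncertain.

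Other genes of the Klra family were seen at low levels. Klra9, which encodes Ly49I, was at 32.1 CPM in Ly49-positive and 2.92 CPM in Ly49-negative cells at day 13, and at 24.0 and 1.38 CPM at day 19. Klra3, which encodes Ly49C, was at 30.6 and 4.43 CPM at day 13 and at 32.2 and 19.3 CPM at day 19. Klra5, which encodes Ly49E, was at 7.20 and 0.972 CPM at day 13 and at 9.87 and 24.3 CPM at day 19, and Klra2 at 5.4 and 9.60 CPM and at 1.72 and 8.45 CPM. Klra17 was higher in Ly49-negative cells on both days, at levels of 0.300 against 1.94 CPM at day 13 and 0 against 2.11 CPM at day 19. Klra4, which encodes the activating Ly49D of NK cells, had 3 UMIs in the Ly49-positive cells of day 13 and 0 in those of day 19.

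Levels of 3 genes are given for the cells just inside and just outside the threshold. Cells with exactly 2 receptor UMIs, 101 and 38 in number, had Xcl1 at 789 CPM at day 13 and 1002 CPM at day 19. Cells with exactly 1 had Xcl1 at 669.9 and 717 CPM. For Ikzf2 the levels were 275 and 222 CPM with 2 receptor UMIs and 268 and 195 CPM with 1, and for Pdcd1 45.6 and 90.9 CPM with 2 and 65.3 and 117 CPM with 1.

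Levels of the CD8 chains differed between the classes, and as genes of the rule they are given only as a description. Cd8b1 was at 192, 195, 158 and 167 CPM in contig sets 1 to 4 of day 13, against 1017, 1361, 1058 and 1054 CPM in Ly49-negative cells. At day 19 the values were 247, 84.8, 166 and 154 CPM against 815, 1243, 1134 and 843 CPM. No contig set of one class reached the other. The log2 ratios were -2.76 (-2.88 to -2.64) at day 13 and -2.98 (-3.14 to -2.82) at day 19. Cd8a was also lower, at 342 against 765 CPM and at 363 against 869 CPM. Counted by cell, 55.9% of the Ly49-positive cells at day 13 and 55.7% at day 19 had Cd8a UMIs and none of Cd8b1, against 6.36% and 3.79% of the Ly49-negative cells. Both chains were found in 32.3% and 35.3%, against 86.9% and 89.8%. A CD8 UMI was required of both classes, and Cd8b1 alone was found in 11.8% and 9.05% of Ly49-positive cells. Tag levels are in parts per 1000000 tag UMIs (ppm). The CD8a antibody tag did not separate CD8 from CD4 T cells, at 2003 ppm in Ly49-positive and 1892 ppm in CD4 T cells at day 13 and at 2236 and 1867 ppm at day 19, and so gave no check at the protein level.

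Receptor UMIs were sought in the other T cells by the same threshold. Of CD8 cells with a Cd8b1 UMI, 8.39% at day 13 and 8.26% at day 19 had at least 2 receptor UMIs. Of CD8 cells without one, 53.0% and 67.6% had them. The share was 23.6% and 26.7% in cells with neither a Cd4 nor a CD8 UMI, and 1.75% and 0.992% in CD4 T cells, a class that mostly lacks Ly49 and is given as the comparison for stray RNA; the source of the UMIs there was not tested. Median UMIs per cell were 7145, 6673, 6702 and 8053 in these classes at day 13. With every cell thinned to 5000 UMIs the order was the same, with 6.91%, 44.9%, 20.6% and 1.46% at day 13.

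**Figure D1:**
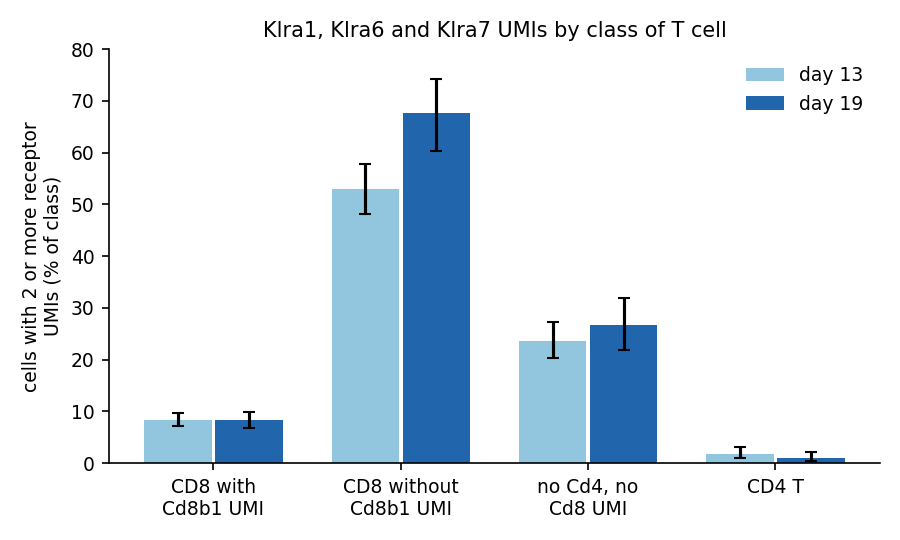
Share of cells with at least 2 UMIs of Klra1, Klra6 and Klra7 together (vertical axis, percent of the class) in 4 classes of T cell without Mki67, at day 13 and day 19. Bars show the share in 1 capture and lines the exact 95% binomial interval; CD8 cells without a Cd8b1 UMI reached 53.0% and 67.6%, CD4 T cells 1.75% and 0.992%.

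The gene profile was compared for genes with a mean level of at least 20 CPM over both classes, and a gene was called at 2-fold. At day 13, 38 of 5524 genes were at least 2-fold higher in Ly49-positive cells, or 0.688%, and 156 were at least 2-fold lower, or 2.82%. At day 19, 55 of 5393 were higher, or 1.02%, and 152 lower, or 2.82%. On both days 24 of 5173 genes were higher, or 0.464%, and 82 lower, or 1.59%. Cd8a and Cd8b1, which the rule used in both classes, are among the lower genes. The median gene had a log2 ratio of -0.05 at day 13 and 0.00 at day 19.

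The genes highest in the Ly49-positive cells on both days were Xcl1, Rbpms, Atp1b1, Ikzf2, Klhdc2, Id3, Klrb1c, Cd7, Cd160 and Pde2a. All 10 were higher in each contig set of both days. Rbpms and Atp1b1 on both days and Klrb1c at day 13 were below 20 CPM in Ly49-negative cells. They passed the filter through the level in Ly49-positive cells. Xcl1 encodes a chemokine that attracts cross-presenting dendritic cells bearing XCR1. It was at 819, 1019, 718 and 689.6 CPM in the contig sets of day 13, against 141, 134, 102 and 117 CPM in Ly49-negative cells. At day 19 it was at 729, 1049.8, 699 and 1083 CPM against 252, 121, 24.0 and 92.5 CPM. The classes did not overlap on either day. The log2 ratios were 2.73 (2.64 to 2.81) and 3.08 (2.98 to 3.19), and 317 of 399 and 166 of 221 Ly49-positive cells had an Xcl1 UMI. Xcl1 was among the genes proposed as a mark of these cells from earlier results of the same data.

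Ikzf2 encodes Helios, a factor of the Ikaros family known from regulatory T cells. It was at 293, 309.9, 290.5 and 333 CPM at day 13 against 62.8, 56.4, 70.8 and 72.0 CPM. At day 19 it was at 161, 296, 340.2 and 196 CPM against 54.5, 76.7, 64.6 and 69.8 CPM. Every contig set of the Ly49-positive cells lay above every set of the Ly49-negative cells, with log2 ratios of 2.24 (2.12 to 2.37) and 1.94 (1.78 to 2.09). An Ikzf2 UMI was present in 325 of 399 and 177 of 221 Ly49-positive cells.

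Cd7 encodes a surface glycoprotein of T and NK cells. Its levels in the contig sets were 503, 576, 569 and 456 CPM at day 13 against 168, 177, 160.0 and 149 CPM, and 311, 702, 519.7 and 604 CPM at day 19 against 127, 172, 90.0 and 119 CPM. The sets did not overlap, and the log2 ratios were 1.70 (1.62 to 1.79) and 2.07 (1.97 to 2.18). Without the cells that had a UMI of Ncr1, Tyrobp, Fcer1g, Lyz2, C1qa, C1qb, Csf1r, Cd79a or Siglech, which left 81 and 30 Ly49-positive cells, the day-19 ratio was -0.09. Id3 encodes an inhibitor of E proteins that is also used as a mark of progenitor exhausted cells. It was at 144 against 40.7 CPM and at 134 against 32.4 CPM. Cd160 encodes a receptor of the immunoglobulin family found on NK cells and CD8 T cells, and it was at 118 against 38.9 CPM and at 208 against 59.6 CPM. Atp1b1 encodes a subunit of the sodium and potassium pump, Pde2a a phosphodiesterase of cyclic nucleotides and Rbpms an RNA-binding protein. Their log2 ratios lay between 1.47 and 2.34 at day 13 and between 1.53 and 2.60 at day 19.

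**Figure D2:**
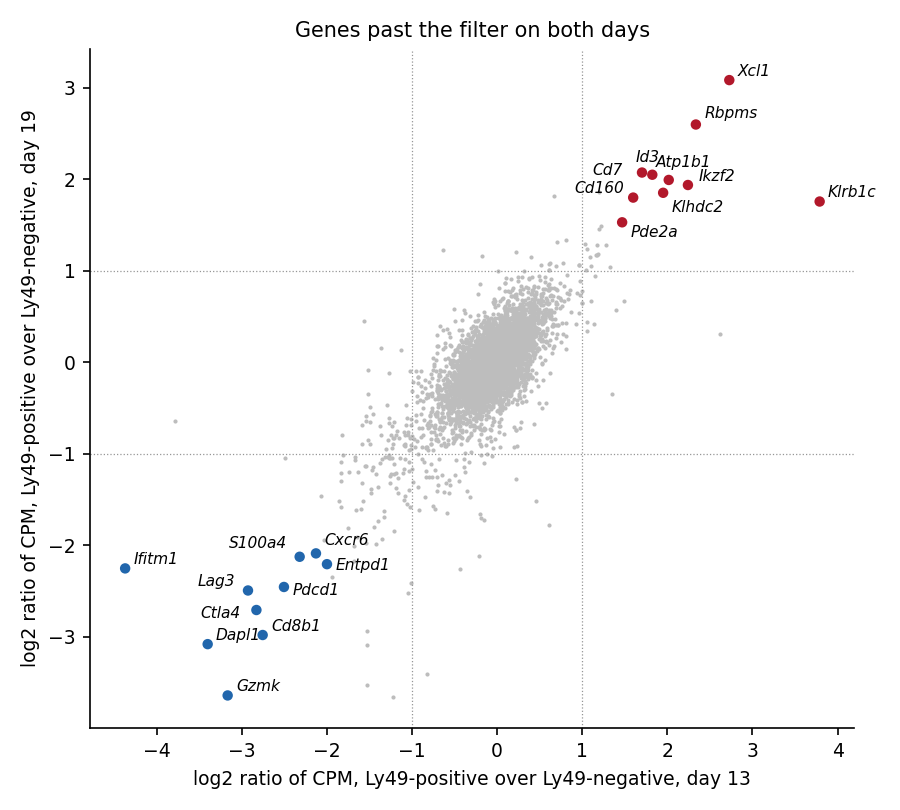
Log2 ratio of CPM, Ly49-positive over Ly49-negative cells, at day 13 (horizontal axis) and day 19 (vertical axis) for the 5173 genes with a mean of at least 20 CPM on both days, each point 1 gene. Named are the 10 genes highest (red) and the 10 lowest (blue) on both days, and dotted lines mark 2-fold; Xcl1 lies at 2.73 and 3.08, Gzmk at -3.17 and -3.64.

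Lectin-like receptors of the NK gene complex other than Ly49 were tallied from a list of 13 genes. At day 13, 6 of them passed the level filter and 3 were at least 2-fold higher: Klrb1c, which encodes NK1.1, Klre1, which encodes an NK receptor of the same family, and Klrc2, which encodes the activating NKG2C. None was lower and the median log2 ratio was 1.58. Klrb1c and Klrc2, below 20 CPM in Ly49-negative cells at day 13, passed the filter through the level in Ly49-positive cells. At day 19, 5 passed, of which Klrb1c was higher and Klrc1 lower, and the median was 0.07.

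Klrb1c was at 48.0, 50.9, 58.0 and 36.2 CPM in the contig sets of day 13, against 4.75, 2.33, 5.23 and 2.88 CPM in Ly49-negative cells. At day 19 it was at 132, 79.7, 13.7 and 103 CPM against 51.9, 27.4, 5.66 and 9.60 CPM. Each set was higher than its own counterpart, but at day 19 the ranges of the classes overlapped. The log2 ratio was 3.79 (3.36 to 4.24) at day 13 and 1.76 (1.47 to 2.05) at day 19. Klre1 was at 133 and 107 CPM in Ly49-positive cells, and at 21.7 and 86.7 CPM in Ly49-negative cells. Klrc2 was at 37.5 against 6.19 CPM at day 13 and at 31.3 against 6.89 CPM at day 19, where it fell below the level filter. Like Xcl1, it was among the genes proposed as a mark of these cells from earlier results of the same data. Klrc1, which encodes the inhibitory NKG2A, was at 92.7 against 151 CPM and at 102 against 243 CPM. Klrd1, which encodes CD94, the partner of both NKG2 chains, had log2 ratios of 0.57 and 0.02.

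Genes of Helios-positive and memory-like CD8 T cells showed no common shift. Of 14 genes of this list past the filter on each day, Ikzf2 and Cd160 were higher and Ly6a, which encodes Sca-1, was lower. The medians were 0.21 and 0.05. Il2rb encodes CD122, the beta chain of the receptors for interleukins 2 and 15, and 397 of 399 and 220 of 221 Ly49-positive cells had a UMI of it. Il2rb UMIs were also found in 90.8% and 91.8% of Ly49-negative cells and in 82.8% and 90.6% of CD4 T cells. It was at 962 against 551 CPM at day 13 and at 838 against 758 CPM at day 19. Ly6a was at 365 against 1308 CPM and at 408 against 865 CPM, with no overlap of the sets. Eomes, a T-box factor of memory and NK cells, had log2 ratios of 0.42 and 0.79.

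Genes of naive and circulating T cells were mixed. Of 12 past the filter, none was 2-fold higher, and Ccr7 and Dapl1 were lower on both days, with Igfbp4 lower at day 13 only. The medians were 0.16 and 0.28. Dapl1 on both days and Igfbp4 at day 13, below 20 CPM in Ly49-positive cells, passed through the level in Ly49-negative cells. Ccr7, the chemokine receptor that guides naive T cells into lymph nodes, was at 212 against 483 CPM and at 152 against 349.9 CPM. Tcf7, which encodes the factor TCF1 of naive, memory and progenitor cells, had log2 ratios of 0.37 and 0.91.

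The surface tags gave a reading of protein in the same cells. No tag in the panel was against Ly49. Ly6C, a mark of memory CD8 T cells, was at 6739 against 4827 ppm at day 13 and at 8956 against 5384 ppm at day 19. Its log2 ratios were 0.48 and 0.73, and the differences of the medians over cells, which single cells cannot move, were 0.57 and 0.94. Ly6A, the protein of Ly6a, had ratios of -0.91 and -0.78 and median differences of -0.74 and -0.78. Of 138 tags, 3 were at least 1.5-fold higher at day 13, or 2.17%, and 2 lower, or 1.45%. At day 19, 3 were higher, or 2.17%, and 8 lower, or 5.8%.

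Several of those tags differed little in the median cell. Gr1 was called higher on both days with 68.6% and 67.6% of its UMIs in 1 cell, and its median differences were 0.10 and 0.09. CD38, CD93, CD172a, CD366, CD274 and CD207 were called lower at day 19 with median differences between -0.16 and 0.08. By the median over cells, 1 tag was higher and 1 lower at day 13, and 2 were higher and 1 lower at day 19. The CD49b tag, an integrin of NK and memory T cells, had log2 ratios of 0.25 and 0.50. The tags for CD122, NK1.1 and PD-1 (CD279) were nearly level over Ly49-positive, Ly49-negative and CD4 T cells, at 3566, 3648 and 3546 ppm for NK1.1 at day 13, and so no difference could be read from them.

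Pdcd1, Lag3, Ctla4 and Entpd1, from the list of inhibitory receptors and terminal exhaustion, were lower in Ly49-positive cells on both days. Of 10 genes of the list past the filter at day 13, 4 were at least 2-fold lower, and of 12 at day 19, 8 were. The other 6 and 4 were neither higher nor lower by 2-fold, with Cd101 at 24.9 against 17.2 CPM at day 13. None was higher on either day, and the medians were -0.69 and -1.52. The filter takes the mean of both classes, so Entpd1 on both days and Havcr2, Cd38 and Cd101 at day 19, below 20 CPM in Ly49-positive cells, passed through the level in Ly49-negative cells. The counts and medians of this and the other lists only describe them. Pdcd1 encodes PD-1, which restrains T cells at contact with its ligands. It was at 70.8, 32.8, 37.4 and 26.1 CPM in the contig sets of day 13 against 185, 235, 197 and 222 CPM, and at 78.6, 25.2, 78.6 and 77.8 CPM at day 19 against 221, 389, 241 and 213 CPM. Each set of the Ly49-positive cells lay below all sets of the Ly49-negative cells. The log2 ratios were -2.51 (-2.77 to -2.25) and -2.45 (-2.72 to -2.20). Ctla4, which encodes a receptor that competes for B7 ligands, was at 26.1 against 185 CPM and at 31.3 against 204 CPM. Lag3, a receptor related to CD4, was at 25.8 against 196 CPM and at 56.2 against 316 CPM. Entpd1 encodes CD39, an enzyme that degrades extracellular ATP, and was at 12.3 against 49.2 CPM and at 16.7 against 77.2 CPM. The sets did not overlap for any of these 4 genes.

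Some cytotoxic and cytokine genes were also lower. Of 9 cytotoxic genes past the filter at day 13, Gzma, Gzmb, Gzmk and Prf1 were lower and none higher, with a median of -0.51. At day 19 Gzmf was lower too, 5 of 11, and the median was -0.89. The other 5 and 6 were not called, among them Ctsw, a cathepsin of cytotoxic cells, at 786 against 616 CPM and at 714 against 683 CPM. Prf1 at day 13 and Gzmk and Gzmf at day 19 were below 20 CPM in Ly49-positive cells. They passed the filter through the level in Ly49-negative cells. Gzmk encodes granzyme K, a protease of early effector and memory cells. Its sets were at 17.7, 26.0, 39.6 and 11.6 CPM against 220.4, 299, 219 and 203 CPM at day 13, and at 14.3, 1.01, 23.9 and 8.42 CPM against 84.4, 134, 162 and 80.3 CPM at day 19. The classes were far apart, with log2 ratios of -3.17 (-3.48 to -2.87) and -3.64 (-4.30 to -3.05), and only 20 and 8 Ly49-positive cells had a Gzmk UMI. Gzmb, which encodes granzyme B, was at 462 against 1359 CPM and at 736 against 1619 CPM. Gzmf was at 5.58 against 1451 CPM at day 19, with its UMIs in 2 Ly49-positive cells.

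Of the cytokine and chemokine list, Xcl1 was the one gene higher, while Ifng, Ccl3 and Ccl4 were lower on both days and Csf1 at day 19. Of 7 and 8 genes past the filter, the medians were -0.60 and -0.97. Csf1 at day 19, below 20 CPM in Ly49-positive cells, passed through the level in Ly49-negative cells. Ifng, which encodes interferon gamma, was at 91.2 against 234 CPM and at 64.8 against 246 CPM. Ccl4, an inflammatory chemokine, was at 341 against 688 CPM and at 144 against 766 CPM. Ccl5, another such chemokine, was abundant in both classes, at 4718 against 7141 CPM and at 3289 against 3386 CPM.

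The remaining genes among the 10 lowest were Dapl1, Cd8b1, Ifitm1, S100a4 and Cxcr6. Of these, Cd8b1 is a gene of the rule. Dapl1 was at 5.70 against 60.2 CPM and at 7.29 against 61.6 CPM. It passed the filter on both days, and Ifitm1 at day 13, through the level in Ly49-negative cells. S100a4, a calcium-binding protein of effector cells, was at 60.9 against 304 CPM and at 162 against 707 CPM. Cxcr6, a chemokine receptor of resident and terminally differentiated T cells, was at 49.2 against 215 CPM and at 48.5 against 206 CPM. Ifitm1, an interferon-induced membrane protein, was at 8.10 against 168 CPM at day 13. At day 19 it stood at 1573, 362, 104 and 2.10 CPM in the 4 contig sets against 1172, 2824, 499.6 and 738 CPM, and 1 set was the higher one. Ahr, a receptor of aromatic ligands with a role in tissue lymphocytes, was the residency gene that was higher, with log2 ratios of 1.28 on both days.

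Genes that respond to TCR signals and to interferon were not separated by the 2-fold threshold. Of 9 signal response genes past the filter, none was higher or lower on either day, with medians of 0.30 and 0.15. Spry2, an inhibitor of receptor signals proposed as a mark of these cells, fell below the filter at 23.4 against 2.49 CPM and 16.7 against 6.25 CPM. Of 9 interferon response genes, none was called, with medians of -0.49 and -0.02.

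**Figure D3:**
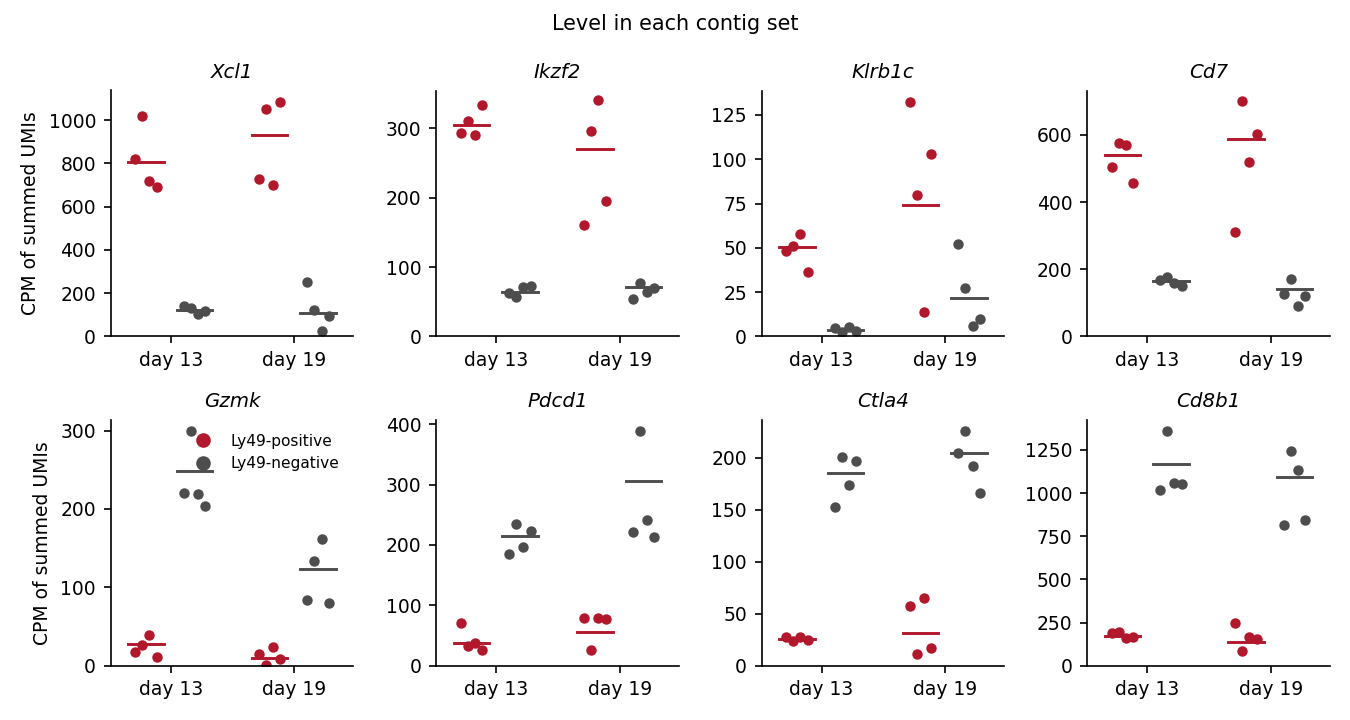
CPM of summed UMIs (vertical axes, each from 0) for 8 genes in Ly49-positive (red) and Ly49-negative (grey) cells at day 13 and day 19. Each point is 1 of the 4 contig sets and each line the level over all cells of the class; the classes did not overlap except for Klrb1c at day 19.

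Both classes were then divided by whether a cell had a Cd8b1 UMI, a split chosen after the data were seen. Ikzf2, Klhdc2 and Xcl1 were higher without Cd8b1 also in cells without receptor UMIs. How many genes of the profile did so was not counted. Ikzf2 at day 13 was at 331 CPM in Ly49-positive cells without Cd8b1, 273 CPM in those with it, 280.0 CPM in Ly49-negative cells without Cd8b1 and 51.1 CPM in Ly49-negative cells with it. Klhdc2, a subunit that recognises targets for ubiquitin ligases, was at 159, 147, 144 and 33.2 CPM in the same order. Xcl1 was at 1055, 506, 559 and 94.2 CPM at day 13 and at 1301, 494, 561 and 92.5 CPM at day 19. The class of Ly49-negative cells without Cd8b1 was small, with 126 and 42 cells.

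For Ikzf2 and Klhdc2, Ly49-negative cells without Cd8b1 had levels near those of Ly49-positive cells, while Xcl1 lay near the level of Ly49-positive cells with Cd8b1 and below that of those without it. The difference between the classes was also there among cells with Cd8b1. Of the 24 genes higher on both days, 20 were still at least 2-fold higher on both days among cells with a Cd8b1 UMI, and 2 among cells without one. These 2 were Cd160 and Klrb1c, and 18 of the 24 kept their direction. Klrb1c at day 13 was at 63.6, 34.7, 27.1 and 2.19 CPM in the order given above, and Klre1 at 149, 115, 36.4 and 20.8 CPM. At day 19 Klre1 was at 94.6, 122, 75.1 and 87.2 CPM, with no such order. Of the 82 lower genes, 52 stayed at least 2-fold lower among cells with Cd8b1 and 32 among cells without it, and 82 and 62 kept their direction. Gzmb and Ccl4 were among those that changed direction without Cd8b1. Cd8b1 itself is 1 of the 82 and could not stay in cells without it. Gzmk was at 2.77 CPM in Ly49-positive cells without Cd8b1, 57.0 CPM in those with it, 11.5 CPM in Ly49-negative cells without it and 263 CPM in the rest. Pdcd1 at day 13 was at 19.9, 59.0, 80.2 and 223 CPM in that order. A Cd8b1 transcript can be missed in a cell that has the protein, and the antibody tags could not settle which cells lack it.

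Within the Ly49-positive cells, those with and without Cd8b1 differed in few genes. Of 4837 genes past the filter on both days, 2 were at least 2-fold higher without Cd8b1 on both days, or 0.0413%, with Xcl1 among them. Another 2, or 0.0413%, were lower, Spp1 and Themis. Themis takes part in the signalling and selection of T cells. Spp1 is known from macrophages.

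**Figure D4:**
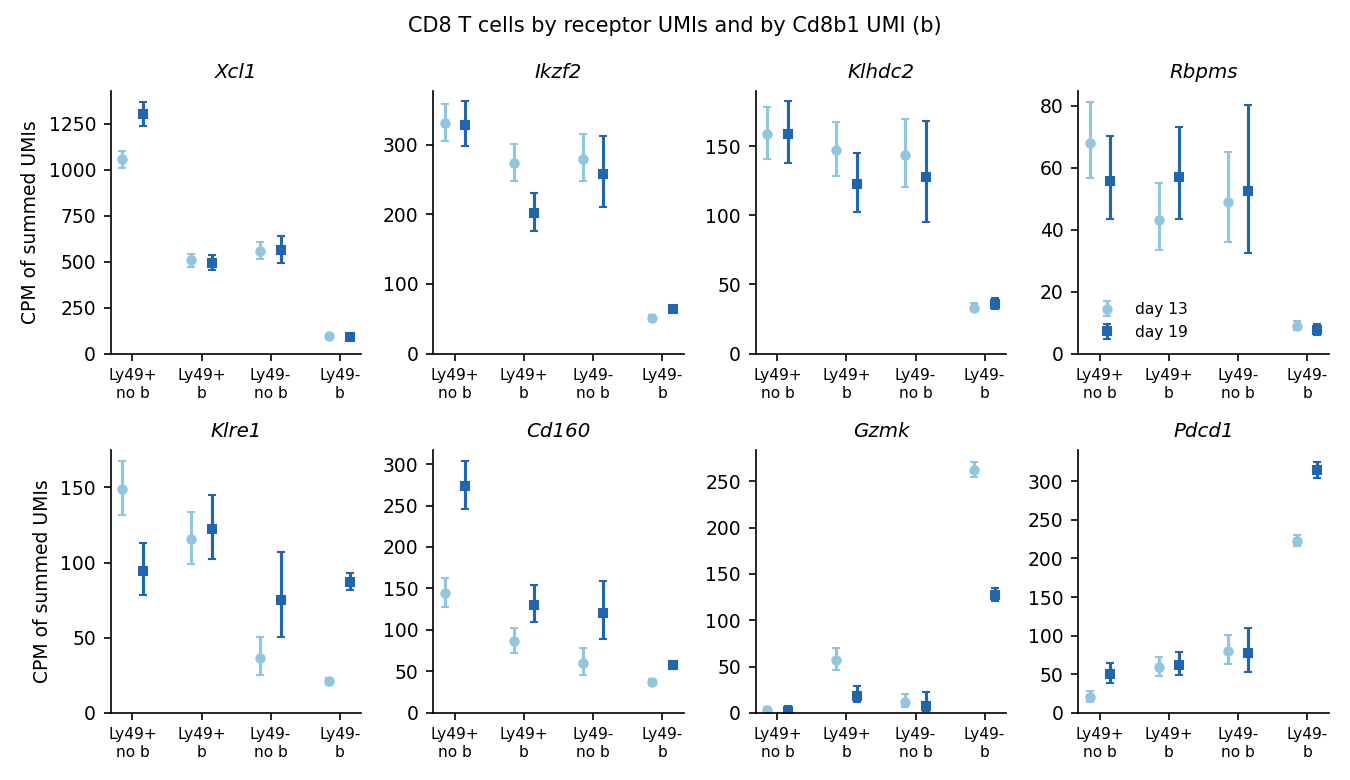
CPM of summed UMIs (vertical axes, each from 0) for 8 genes in CD8 T cells divided by receptor UMIs and by a Cd8b1 UMI, marked b, at day 13 (circles) and day 19 (squares), with exact 95% intervals. Ikzf2, Klhdc2 and Rbpms in Ly49-negative cells without Cd8b1 lay near the Ly49-positive classes; Klre1 at day 13 was at 36.4 CPM in them, against 149 and 115 CPM in the Ly49-positive classes.

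The comparison class held many activated cells, so it was narrowed in further ways that were also chosen after the data were seen. Among cells of both classes with no UMI of Pdcd1, Lag3, Ctla4 or Havcr2, 9 of the 24 genes stayed at least 2-fold higher on both days and all 24 kept their direction: the 9 were Ikzf2, Xcl1, Cd160, Mfsd10, Klrb1c, Rbpms, Cd7, Ahr and Klhdc2. Of the 82 lower genes, 14 stayed 2-fold lower and 44 kept their direction; 3 of the 82, Pdcd1, Lag3 and Ctla4, are at 0 in both classes by this choice and could not stay. With Ly49-negative cells limited to clonotypes of 1 cell, 12 of the 24 and 31 of the 82 stayed. In cells without the 4 inhibitory genes, 10 of the singly named genes that were lower at day 19 in the whole classes had log2 ratios above 0: Ifitm1 6.05, Ccl3 2.21, S100a6 1.58, Gzmb 0.93, S100a4 0.90, Lgals1 0.75, Klrc1 0.74, Cxcr6 0.27, Ifng 0.064 and Ccl4 0.019. Ccl4 was also above 0 at day 13, at 0.53. At day 19 these narrowed classes held 149 Ly49-positive and 338 Ly49-negative cells. Among all Ly49-positive cells of day 19, 1 cell held 27.8% of the Ifitm1 UMIs, and the part of single cells in these ratios was not tested.

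Markers of other cells were measured in both classes. The 6 NK markers summed to 815 CPM in Ly49-positive and 665 CPM in Ly49-negative cells at day 13, with sets from 698 to 939 and from 545 to 1097, and to 1009 and 1286 CPM at day 19, with sets from 863 to 1083 and from 1033 to 1530.1. The sum hid unlike members. Fcer1g, a signalling chain of NK and myeloid cells, was found in 67.4% of Ly49-positive and 19.5% of Ly49-negative cells at day 13, and in 73.3% and 45.0% at day 19, with cells thinned to 5000 UMIs (76.7% and 22.0%, 81.9% and 48.1% unthinned). In CD4 T cells the thinned share was 50.5% and 59.2%, and in Ly49-negative cells without Cd8b1 52.4% and 57.1%. Its levels were 561 against 378 CPM and 711 against 967 CPM. Tyrobp was found in 17.3% and 16.8%, and in 26.2% and 24.9%, of thinned cells. Ncr1, the receptor NKp46 that defines NK cells, was found in 9 of 399 and 2 of 221 Ly49-positive cells, or 2.26% and 0.905% unthinned, against 0.101% and 0.0902% of Ly49-negative cells. Its levels were 6.30 against 0.729 CPM and 3.86 against 0.0919 CPM. Cd3e UMIs were found in 396 of 399 and 218 of 221. The 5 gamma-delta T cell markers summed to 84.9 against 22.6 CPM at day 13 and 89.7 against 44.9 CPM at day 19. The sets of Ly49-positive cells ran from 50.5 to 96.1 and from 79.9 to 104 CPM, those of Ly49-negative cells from 20.04 to 24.8 and from 30.1 to 57.2 CPM. Its constant segment Tcrg-C4 was at 46.5 against 6.68 CPM and at 31.8 against 5.51 CPM, which is below the level filter at day 19. Tcrg-C2, the marker past the filter at day 19, was at 28.3 against 35.6 CPM. Trdc was at 5.70 and 9.87 CPM in Ly49-positive cells, the defining factor Sox13 was at 0 at day 13 and had UMIs in 2 cells at day 19, and Zbtb16, the factor of invariant NKT cells, had 2 and 1 UMIs. B cell markers were at 0 in the Ly49-positive cells. The part of NK or gamma-delta T cells in the other differences was not tested.

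RNA of myeloid cells was present in both classes and lower in Ly49-positive cells. The 8 myeloid markers summed to 1743 against 4436 CPM at day 13 and to 2483 against 4357 CPM at day 19. Contig sets ranged from 1067 to 2496 and from 3516 to 6921 at day 13, and from 1071 to 5248 and from 2835 to 8749 at day 19. The part of this RNA in the other differences was not tested. Leaving out cells with a UMI of any of the 9 genes from Ncr1 to Siglech named above for Cd7 cannot gauge it. Those genes include Fcer1g, found unthinned in 76.7% and 81.9% of Ly49-positive but 22.0% and 48.1% of Ly49-negative cells at day 13 and day 19. The step kept 81 of 399 and 30 of 221 Ly49-positive cells, against 1169 of 1982 and 447 of 1109 Ly49-negative cells. In the cells kept, 10 of the 24 and 45 of the 82 genes stayed past 2-fold on both days.

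Droplets with 2 cells were gauged from chains and tags. Cells with 2 or more TRB chains made up 10.3% and 8.60% of Ly49-positive cells and 6.81% and 7.66% of Ly49-negative cells. The share was 15.9% (10.8 to 22.2) and 11.2% (5.74 to 19.2) in Ly49-positive cells with Cd8b1, against 5.83% and 6.50% in those without it and 6.95% and 7.69% in Ly49-negative cells with Cd8b1. Its part in the comparison among cells with Cd8b1 was not tested. A second multiplexing tag with over 20% of the multiplexing UMIs was seen in 12.03% and 15.4%, against 11.4% and 13.6%. Leaving out the first kept 24 of the 24 and 79 of the 82 genes past 2-fold on both days, and leaving out the second kept 23 and 77.

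The receptors of Ly49-positive cells came almost entirely from clonotypes seen once. A clonotype was the pair of TRA and TRB CDR3 nucleotide sequences, in cells with 1 chain of each, and its size was counted over all cells of the contig set. At day 13, 2 of 274 Ly49-positive cells were in clonotypes of at least 2 cells, or 0.730% (0.0885 to 2.61). At day 19, 0 of 152 were. Limits for a count of 0 are 3 counts of the total, here 1.97%, and the upper end of the exact interval was 2.40%. Of Ly49-negative cells, 474 of 1434 at day 13, or 33.1% (30.6 to 35.6), and 291 of 735 at day 19, or 39.6% (36.04 to 43.2), were in such clonotypes. The contig sets of Ly49-negative cells ranged from 24.0% to 45.1% at day 13. The largest clonotype with a Ly49-negative cell had 32 cells at day 13 and 71 at day 19.

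The 1 clonotype with more than 1 Ly49-positive cell was a pair of cells in contig set 3 of day 13, one with and one without Cd8b1. It used TRAV14D-3-DV8 with TRAJ16 and TRBV17 with TRBJ2-5. Its CDR3 sequences are shown because it was the only repeat among 425 Ly49-positive clonotypes, 5′ to 3′, with the first and last codon of the CDR3 in capitals.
TRA: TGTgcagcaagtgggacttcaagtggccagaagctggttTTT
TRB: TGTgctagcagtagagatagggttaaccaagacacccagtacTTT

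No pair of CDR3 sequences of the 425 clonotypes was found in another contig set or on the other day. No TRB CDR3 was shared by 2 of them, and none equalled that of a clonotype of 2 or more cells without Ly49-positive cells. A TRA CDR3 was shared in 2 cases, each time by clonotypes with different TRB chains at day 13. The shared TRA CDR3 sequences are given with the V gene assigned, in the same notation. The first was assigned to TRAV8-1 in contig set 3 and to TRAV8D-1 in set 4, V genes of the duplicated part of the locus.
TRAV8-1 or TRAV8D-1 with TRAJ22: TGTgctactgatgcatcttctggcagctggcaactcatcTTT
TRAV9D-3 with TRAJ30: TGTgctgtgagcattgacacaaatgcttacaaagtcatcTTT

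Clonotypes of 1 cell were also the rule in some other classes. Of Ly49-negative cells without a Cd8b1 UMI, 0 of 84 at day 13, which allows up to 3.57% by 3 counts and 4.30% by the exact interval, and 2 of 33 at day 19, or 6.06%, were in clonotypes of at least 2 cells. Of Ly49-negative cells without the 4 inhibitory genes, 4.93% and 5.39% were. Of cells with at least 2 receptor UMIs that had a Mki67 UMI, the mark of dividing cells left out of the rule, 0 of 25 and 0 of 47 were, which allows up to 12% and 6.38% by 3 counts and 13.7% and 7.55% by the exact interval. Of dividing CD8 cells without receptor UMIs, 56.2% and 61.2% were. A Mki67 UMI was found in 7.85% and 23.0% of CD8 cells with at least 2 receptor UMIs and in 16.8% and 24.1% of those with none, or in 4.62% and 19.5% against 11.7% and 17.2% with cells thinned to 5000 UMIs.

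**Figure D5:**
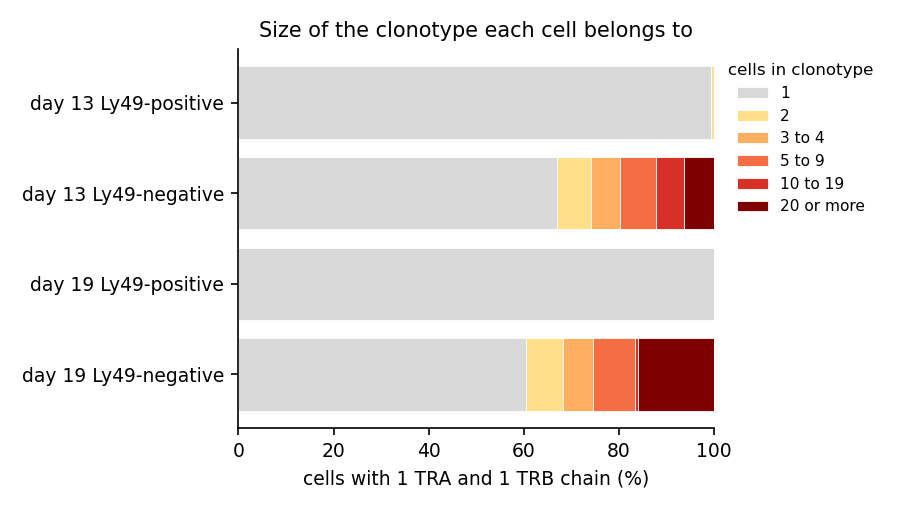
Share of cells with 1 TRA and 1 TRB chain (horizontal axis, percent) by the number of cells in their clonotype, for Ly49-positive and Ly49-negative cells of each day. Nearly the whole bar of the Ly49-positive cells is at clonotypes of 1 cell, against 66.9% and 60.4% of the Ly49-negative cells.

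V gene use was compared over clonotypes, 425 Ly49-positive and 1617 Ly49-negative on both days together. TRBV12-2 stood out, at 12.7% (9.69 to 16.3) against 5.63% (4.55 to 6.86), and it was higher in 8 of 8 contig sets. Another 8.47% of Ly49-positive and 6.99% of Ly49-negative clonotypes had the ambiguous call TRBV12-2+TRBV13-2, which was higher in 4 of 8 sets, so part of the TRBV12-2 chains may lie there. By day TRBV12-2 alone was at 12.1% against 5.94% and at 13.8% against 4.97%. Its share in the contig sets ran from 8.57% to 21.4% in Ly49-positive cells and from 1.75% to 9.63% in Ly49-negative cells. Of the other TRBV genes with the largest differences, TRBV19 was at 4.24% against 6.80%, TRBV14 at 1.88% against 4.39%, TRBV26 at 0.706% against 3.15% and TRBV5 at 4.47% against 6.80%. Each of these 4 was lower in 7 of 8 sets.

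The TRB CDR3 sequences of the TRBV12-2 cells with the most receptor UMIs, 2 of each day, show how the same V gene was joined differently. Capitals again mark the first and last codon.
Day 13, TRBJ2-1, 26 receptor UMIs: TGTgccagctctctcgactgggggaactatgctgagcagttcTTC
Day 13, TRBJ1-3, 20 receptor UMIs: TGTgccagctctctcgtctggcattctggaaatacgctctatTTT
Day 19, TRBJ2-1, 19 receptor UMIs: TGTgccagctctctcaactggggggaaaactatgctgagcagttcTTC
Day 19, TRBJ2-7, 18 receptor UMIs: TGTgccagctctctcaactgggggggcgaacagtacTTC

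Among TRAV genes, TRAV12D-3 was at 1.18% (0.383 to 2.72) of Ly49-positive and 3.77% (2.90 to 4.82) of Ly49-negative clonotypes, lower in 8 of 8 contig sets. TRAV19 was at 0.235% against 1.98%. TRAV5-4, TRAV10 and TRAV13N-1 were at 3.29%, 3.53% and 1.88% against 1.86%, 2.10% and 0.495%, and their direction was not the same in all sets. These V genes were picked for their differences. The repertoire was otherwise broad, with 75 TRAV and 22 TRBV calls in Ly49-positive clonotypes, the ambiguous call included, and 0 cells had the TRAV11 with TRAJ18 of invariant NKT cells. The TRB CDR3 had 14.15 codons (SD 1.38) against 13.89 (SD 1.45) and the TRA CDR3 13.71 (SD 1.30) against 13.67 (SD 1.37), and the difference of the means was not tested. A cysteine within 2 residues of the CDR3 centre, a feature tied to alpha-chain-only CD8 T cells of the gut, was found in 0.706% against 0.557%.

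Between the days most of the 10 genes highest in Ly49-positive cells had similar levels in these cells. Day cannot be told apart from capture, staining and the pooling of mice, so the following values only describe the captures. Of 5415 genes past the filter, 43 were at least 2-fold higher at day 19, or 0.794%, and 42 lower, or 0.776%, with a median log2 ratio of -0.03. Both counts moved with the contig set left out, as given below among the alternatives. Xcl1, Ikzf2, Rbpms, Klhdc2, Atp1b1, Id3 and Cd7 had ratios between -0.17 and 0.21. Pde2a was at 141 and 95.3 CPM, a ratio of -0.56 (-0.80 to -0.33), and Klrb1c at 50.4 and 74.2 CPM, a ratio of 0.56 (0.24 to 0.87). Cd160 was at 118 CPM at day 13 and 208 CPM at day 19, a ratio of 0.82 (0.62 to 1.01).

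Il7r, the receptor chain for interleukin 7, was at 247 CPM at day 13 and 119 CPM at day 19, with a ratio of -1.06 (-1.26 to -0.86). Its contig sets, from 207 to 297 and from 103 to 164 CPM, did not overlap. In Ly49-negative cells its ratio was -0.53. Of the interferon response list, Ifit1, Ifit3 and Rsad2 were lower at day 19, 3 of 9, with ratios of -1.18, -1.24 and -1.19. The same genes had ratios of -1.75, -1.60 and -2.08 in Ly49-negative cells. Lag3 was at 25.8 and 56.2 CPM, and Itga1, an integrin of resident T cells, at 13.5 and 28.3 CPM, with ratios of 1.12 and 1.07. In Ly49-negative cells their ratios were 0.69 and 1.48, and those of Cd160 and Klrb1c 0.61 and 2.59. Gzmc was at 7.5 and 313 CPM with 34.1% of its day-19 UMIs in 1 cell, and at 4.31 and 572 CPM in Ly49-negative cells. Of the 8 myeloid markers, Apoe, C1qa and C1qb were higher at day 19, with ratios of 1.52, 1.53 and 1.56, Lyz2 was lower, with -1.07, and 4 were neither. The contig sets of Apoe, C1qa and C1qb overlapped between the days.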

How the data were processed

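The files hold raw UMI counts per gene, antibody tag and barcode, and TCR contig tables, deposited by the authors per the file headers. The submitters' processing notes name bcl2fastq 2.20, Cell Ranger 4.0.0, STAR 2.7.5c, Seurat, R 4.1.2 and mm10; the sources used here give neither their order nor their settings. Gene positions come from RefSeq on GRCm38. The 4 contig tables per day share no barcode. A cell's most abundant multiplexing tag matched its table in 99.0% and 91.4% of Ly49-positive cells and in 99.5% and 88.7% of all cells.

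The members and the gene lists were chosen with earlier results of these data known. Counts were summed per class with Python 3.11.15, numpy 2.4.6, scipy 1.17.1 and pandas 2.3.3, and divided by all gene UMIs of the class. Ratios have exact conditional intervals for 2 Poisson counts, shares Clopper-Pearson intervals. Counts for 5560 genes of the day-13 comparison were simulated as Poisson draws, 200 of them changed by 1.5 on the log2 scale. This gave 197 of those 200 past 2-fold, 0 others, and intervals that held the true value for 95.1%. The intervals also assume Poisson counts, so the simulation checks the computation and not the spread between cells. No doublet caller was run: cells with 2 TRB chains or a second multiplexing tag over 20% were left out in alternatives instead.

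Genes named singly are up to 4 per list, by the smaller ratio of the 2 days, and defining markers. Also named are the 10 highest and 10 lowest genes with a mean of both classes of at least 20 CPM on both days. The ranks skip TCR, immunoglobulin, ribosomal and mitochondrial genes, Y-linked genes, Xist, Tsix, and Gm and Rik names. Spp1 and Themis, the genes that stayed past 2-fold in the narrowed comparisons, and the genes named between the days beyond the lists were chosen after their values were seen. Alternatives varied the receptor, UMI, mitochondrial, Cd8b1 and Mki67 limits, the level filter, the weighting of cells, depth, clonotype definition, tag measure and contig sets. 5 further ones were added after the data were seen. Some items are not reported here.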

Additional observations from a re-analysis of the deposited data

Results flagged for a closer look

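Cd44, which encodes an adhesion receptor of activated and memory T cells, lay in opposite directions on the 2 days in every contig set. Its log2 ratio of Ly49-positive over Ly49-negative cells was 0.34 at day 13, higher in 4 of 4 sets, and -0.42 at day 19, lower in 4 of 4 sets. The levels in Ly49-positive cells were 84.0 and 53.6 CPM, and in Ly49-negative cells 66.3 and 71.9 CPM. Cxcr3, a chemokine receptor of effector and memory T cells, did the reverse, with -0.59 at day 13 and 0.36 at day 19, again in 4 of 4 sets of each day. The difference between the days was not tested for either gene.

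A further signal lay in barcodes that the contig tables do not hold. Of CD8 barcodes outside the tables that met the same limits, 18.9% at day 13 (204 of 1077, interval 16.6 to 21.4) and 14.1% at day 19 (33 of 234, 9.91 to 19.2) had at least 2 UMIs of Klra1, Klra6 and Klra7. All of these had a Cd3e UMI. Tyrobp, an adaptor of NK and myeloid cells, was found in 52.9% and 72.7% of them, against 20.6% and 33.0% of the Ly49-positive cells and 51.5% and 59.8% of the CD4 T cells inside the tables. Ncr1 was found in 2.45% and 6.06%.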

How the results depend on the processing

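No paired analysis was possible because the labels give no replicates within a day; classes were compared set by set as a description, since the contig sets are not stated to be replicates. Depth limits genes under 20 CPM, and the 399 and 221 Ly49-positive cells limit the shares of day 13 and day 19. Of 791 recomputed ratios of the 20 highest and lowest genes, 747 kept direction and 2-fold size and 7 reversed. Of the counts and shares over all alternatives, 194 of 258 stayed within 1.5 times the reported count or within the reported share's 95% interval; the others follow. The Ly49-positive share at day 13 and day 19 was 21.3% and 19.0% with at least 1 receptor UMI, 11.8% and 13.4% with at least 3, 11.9% and 10.6% with cells thinned to 5000 UMIs, 12.6% and 13.9% with a minimum of 1000 UMIs, 8.39% and 8.26% with a Cd8b1 UMI required, and 6.28% and 6.15% without cells that had other cells' markers (Ncr1, Tyrobp, Fcer1g, Lyz2, C1qa, C1qb, Csf1r, Cd79a, Siglech). Leaving out 1 contig set gave 14.2% to 18.3% at day 13.

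The number of genes past the filter and the counting error change with these alternatives. That number is not given here, so the counts are not shares and cannot be set directly against the main counts. With a filter at 5 CPM, higher and lower genes numbered 149 and 402 at day 13 and 204 and 414 at day 19. Between the days they numbered 188 and 185. With a filter at 50 CPM they numbered 18 and 74, 19 and 63, and 15 and 19 in the same order. Without other cells' markers they were 159 and 238 at day 19 and 206 and 238 between the days. In cells without the 4 inhibitory genes, lower genes numbered 32 at day 13, and higher and lower ones 105 and 41 at day 19. Against clonotypes of 1 cell the lower ones were 98 and 65. In cells without Cd8b1 the day-19 counts were 137 and 273. Between the days, higher and lower genes numbered 75 and 69 with Cd8b1 required and 101 and 70 with Mki67-positive cells kept; lower ones were 27 with at least 1 receptor UMI and 25 by the mean of per-cell CPM. Leaving out 1 contig set gave 38 to 66 higher, the most without day-19 set 2, and 33 to 83 lower, the most without day-19 set 3. By the median over cells, tags numbered 1 higher and 1 lower at day 13 and 1 lower at day 19.

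Ly49-positive cells in clonotypes of at least 2 cells at day 13 fell to 0 without other cells' markers and for clonotypes of at least 3 cells, and leaving out 1 set gave 0 to 0.995%, with 0 without set 3. In Ly49-negative cells at day 13 and day 19 the share was 37.1% and 44.4% with Mki67-positive cells, 25.9% and 31.8% for at least 3 cells, 4.93% and 5.39% without the inhibitory genes, and 0 and 6.06% without Cd8b1; at day 19 it was 22.7% without other cells' markers and 43.7% by TRB alone. Leaving out 1 set gave 25.0% to 37.4% at day 13 and 32.1% to 42.5% at day 19.

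Among singly named genes, the called log2 ratios that changed direction were these; the cause was not tested. Without other cells' markers, Cd7 at day 19 was at -0.092. Without the inhibitory genes, Ccl4 was at 0.53 at day 13, and at day 19 Ifitm1 was at 6.05, S100a4 0.90, Cxcr6 0.27, Klrc1 0.74, Gzmb 0.93, Ifng 0.064, Ccl3 2.21, Ccl4 0.019, Lgals1 0.75 and S100a6 1.58. Without Cd8b1, Ccl4 was at 0.11, Cxcr6 0.10, Gzmb 0.10 and Prf1 0.67 at day 13, and at day 19 Ifitm1 was at 0.94, Klrc1 0.36, Gzmb 1.38, Ccl3 1.26, Ccl4 1.12, S100a6 0.99, Id3 -0.051, Gzma 0.23 and Cd8a 0.24.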

Other observations

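Receptor UMIs also marked T cells with neither a Cd4 nor a CD8 UMI. Of these cells, 142 at day 13 and 85 at day 19 had at least 2 UMIs of Klra1, Klra6 and Klra7. In these cells Xcl1 was at 534 and 832 CPM, against 804 and 930.2 CPM in Ly49-positive CD8 cells. Ikzf2 was at 282 and 291 CPM against 305 and 270.3 CPM, Cd7 at 598 and 605 CPM against 539.7 and 589 CPM, and Klrb1c at 85.3 and 106 CPM against 50.4 and 74.2 CPM. Gzmk was lower, at 1.04 and 1.52 CPM against 27.6 and 9.87 CPM, and so was Pdcd1, at 18.7 and 15.2 CPM against 37.8 and 55.8 CPM. Of those with 1 TRA and 1 TRB chain, 0 of 95 and 2 of 59 were in clonotypes of at least 2 cells. The series' design text gives a sort on CD3 with CD4 or CD8, while the sample labels name CD3 alone, and whether these cells carried either coreceptor protein was not tested.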
